A study of Gallus gallus with 2 samples.

Results

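The interferon response genes of the chick wing described here are 10 genes, MX1, IFIT5, OASL, RSAD2, IFIH1, EIF2AK2, IRF1, IRF7, TAP1 and CCL19, found by their symbols among 24356 rows of a TPM table. Each symbol matched 1 row. TPM is a transcript level corrected for length and expressed as a share of a fixed total, so that levels of different genes can be compared within a library. The samples were the wings of 1 chick embryo at Hamburger-Hamilton stage HH 34. The injected group was the right wing, which had received RCAS-GFP-SOCS2, and the uninjected group was the left wing of the same animal. Both wings were collected 5 days after infection. RCAS is a replication-competent avian retrovirus, here carrying a fluorescent reporter and SOCS2, a suppressor of cytokine signalling. The embryo had been selected for overexpressed SOCS2. SOCS2 itself stood at 54.2 TPM uninjected and 254 TPM injected.

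Each group held 1 library, so no difference below has a replicate check, and no p-value or standard deviation was computed. Injection, virus, GFP, SOCS2 and body side all differed together between the wings and cannot be told apart. Whether virus had spread to the uninjected wing was not measured. The table keeps no read depth, so no counting interval is given. Markers of limb mesenchyme and cartilage were present in both wings, with all 11 above 0 and COL2A1, the main cartilage collagen gene, at 1128 TPM uninjected and 1286 TPM injected.

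Interferons are secreted proteins that cells make after sensing viral nucleic acid. They bind receptors on the same and neighbouring cells and, through Janus kinases and STAT factors, switch on a battery of genes whose products block virus replication, sense further viral RNA and load peptides onto MHC class I molecules. In chickens, IRF7 is the regulatory factor known to act downstream of the sensors, and IFIH1, also called MDA5, is the main cytoplasmic sensor of viral RNA. A wing injected with a replicating virus is a setting in which these genes can be asked about.

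The 10 genes were expressed at low levels in both wings. Their summed level was 42.2 TPM uninjected and 35.6 TPM injected. Of the 10, 7 had a mean of at least 1 TPM and were above 0 in both libraries, which was the condition for a comparison. Among these 7, OASL, TAP1 and CCL19 were lower on the injected side beyond 1.5-fold, 4 lay within 1.5-fold and 0 were higher. Over all 13946 compared genes, 4.79% were lower and 2.23% higher by the same rule. With so small a share of higher genes, 0 of 7 does not tell whether the interferon response genes rose. CCL19 reached the mean of 1 TPM only through the uninjected wing. MX1, IFIT5 and RSAD2 were under 1 TPM on average and were not compared. Of these, MX1 and IFIT5 had higher values and RSAD2 a lower value in the injected wing. The 1.5-fold rule is one of size, applied to the ratio of TPM + 0.1.

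The antiviral effectors hold both the most and the least abundant of the 10 genes. EIF2AK2 (ENSGALG00000010560) encodes PKR, a kinase that is activated by double-stranded RNA and halts translation. It was at 17.7 TPM uninjected and 16.6 TPM injected, a log2 ratio of −0.10. This was the highest level of the 10 in each wing.

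OASL (ENSGALG00000013723) encodes the chicken 2′-5′-oligoadenylate synthetase, which detects double-stranded RNA and triggers RNA decay. It was at 4.64 TPM uninjected and 2.82 TPM injected. The uninjected wing was thus 1.65-fold higher in plain TPM, with a log2 ratio of −0.70 after the pseudocount.

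MX1 (ENSGALG00000016142), a dynamin-like GTPase and a classical marker of the interferon response, was listed at 0 TPM in the uninjected wing and at 0.154 TPM in the injected wing. MX1 had a mean under 1 TPM and was listed at 0 in 1 wing, so it was not compared. An exact 0 may also reflect a failed estimate. IFIT5 (ENSGALG00000045085), which binds viral RNA ends, was at 0.346 TPM uninjected and 0.738 TPM injected. RSAD2 (ENSGALG00000016400), the radical SAM enzyme viperin, was at 0.271 and 0.222 TPM in the uninjected and injected wing.

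MX1 and IFIT5 thus had higher values in the injected wing, and each stayed below 1 TPM there. At such levels large ratios were common. Of 4501 rows with a mean above 0 and under 1 TPM, 27.2% were higher and 27% lower beyond 1.5-fold, or 54.2% in either direction, once 0.1 TPM was added. The difference of IFIT5 was of that size and the one of RSAD2 was not, and nothing is read from that.

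**Figure D1:**
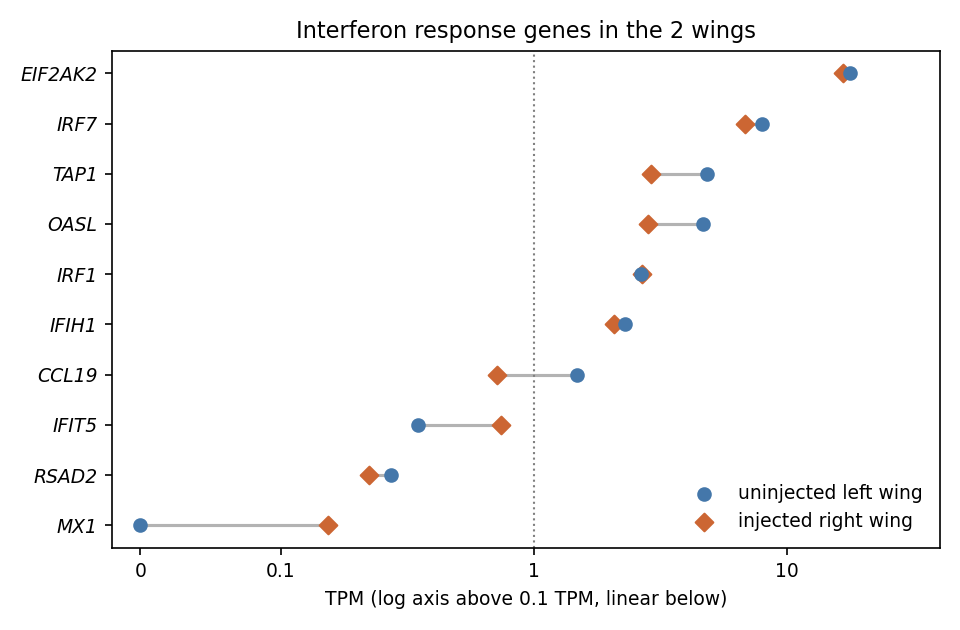
Level of each of the 10 genes in TPM, on a log axis that is linear below 0.1 TPM, with 1 circle for the uninjected and 1 diamond for the injected wing, and a dotted line at 1 TPM. EIF2AK2 is highest at 17.7 and 16.6 TPM, while RSAD2, IFIT5 and MX1 stay below 1 TPM in each wing.

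The sensor IFIH1 (ENSGALG00000041192) binds long double-stranded RNA and signals through MAVS. It was at 2.29 TPM uninjected and 2.06 TPM injected, a log2 ratio of −0.15. Like EIF2AK2, it lay within 1.5-fold.

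The regulatory factors IRF1 and IRF7 are transcription factors that bind interferon-responsive promoters. IRF1 (ENSGALG00000006785) was at 2.64 TPM uninjected and 2.65 TPM injected, the smallest difference among the 7 compared genes, with a log2 ratio of 0.01. IRF7 (ENSGALG00000014297) was at 7.94 and 6.80 TPM in the uninjected and injected wing, a log2 ratio of −0.22. It was the second most abundant of the 10 in each wing.

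TAP1 (ENSGALG00000035075) is a subunit of the transporter that carries peptides into the endoplasmic reticulum for MHC class I loading. It was at 4.83 TPM uninjected and 2.89 TPM injected, 1.67-fold higher in the uninjected wing in plain TPM and −0.72 on the log2 scale. TAP1 and OASL had nearly the same level in each wing, so their order within a wing cannot be told from 1 library.

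CCL19 (ENSGALG00000028256), a chemokine known in mammals to attract lymphocytes and dendritic cells through the receptor CCR7, was at 1.48 TPM uninjected and 0.713 TPM injected. This was the largest ratio among the 7 compared genes, 2.07-fold higher in the uninjected wing in plain TPM and −0.96 on the log2 scale. It was also the gene nearest to the minimum, with a mean of 1.10 TPM, and the pseudocount mattered most for it. CCL19 reached that minimum only through the uninjected wing, so its place among the compared genes rests on the wing where it was higher. CCR7, the receptor gene, was at 1.34 TPM uninjected and 1.70 TPM injected.

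The order of the levels was almost the same in both wings. In the uninjected wing it ran EIF2AK2, IRF7, TAP1, OASL, IRF1, IFIH1, CCL19, IFIT5, RSAD2 and MX1. In the injected wing CCL19 and IFIT5 changed places, at 0.713 and 0.738 TPM. With 1 library a wing, neighbours in this order have no spread against which to be separated.

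The 3 lower genes have to be read against how often any gene passed the rule. Over all compared genes, removing the trend of the ratio over abundance moved the share of higher genes among the calls from 31.8% to 45.1%. The share called depended strongly on abundance. Between 1 and 5 TPM on average, 15.5% of 2431 genes were lower and 7.77% higher. Between 5 and 20 TPM, the shares were 5.09% and 1.95% of 3634 genes. OASL, TAP1 and CCL19 were 3 of 5 interferon response genes in the lowest of these bands. EIF2AK2 and IRF7, in the next band, were within 1.5-fold.

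The ratios of the 3 lower genes were inside the range of their whole abundance band. In the band of 1 to 5 TPM, the 5th and 95th percentiles of the log2 ratio were −1.01 and 0.73, so that CCL19 at −0.96 lay just inside. The range narrowed with abundance, to a 5th percentile of −0.59 between 5 and 20 TPM. TAP1 and OASL averaged 3.86 and 3.73 TPM, and the range of genes at their own level was not examined. Ordered from the lowest ratio over all compared genes, CCL19 held place 235, TAP1 place 445 and OASL place 473. The median log2 ratio of the 7 compared genes was −0.22, beside −0.04 over all compared genes. Of the 7, 6 had a ratio below 0, as had 59.7% of all compared genes.

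**Figure D2:**
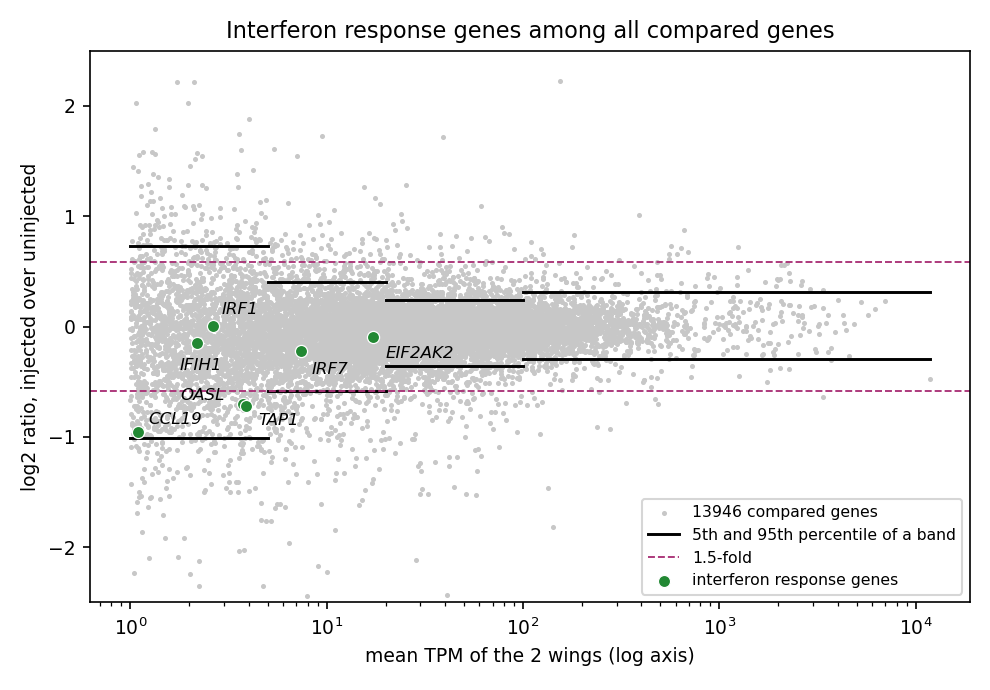
Log2 ratio of injected over uninjected against the mean TPM of the wings (log axis), with all 13946 compared genes in grey and the 7 compared interferon response genes in green; black lines are the 5th and 95th percentile of each abundance band, and genes beyond 2.5 on the log2 scale fall outside the plot. OASL, TAP1 and CCL19 lie below the dashed 1.5-fold line and inside the black lines of their band at −1.01 and 0.73.

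The calls of the 3 lower genes depended on the pseudocount. With 1 TPM added in place of 0.1, OASL was at −0.56, TAP1 at −0.58 and CCL19 at −0.53, so that 0 of the 7 passed 1.5-fold; with that pseudocount 3.1% of all compared genes were lower and 1.33% higher. Under 3 other scalings, and with the abundance trend removed, the same 3 genes stayed beyond 1.5-fold in the lower direction. Over all settings tried, the log2 ratio of IRF1 lay between 0.00 and 0.11 and that of EIF2AK2 between −0.10 and −0.03.

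**Figure D3:**
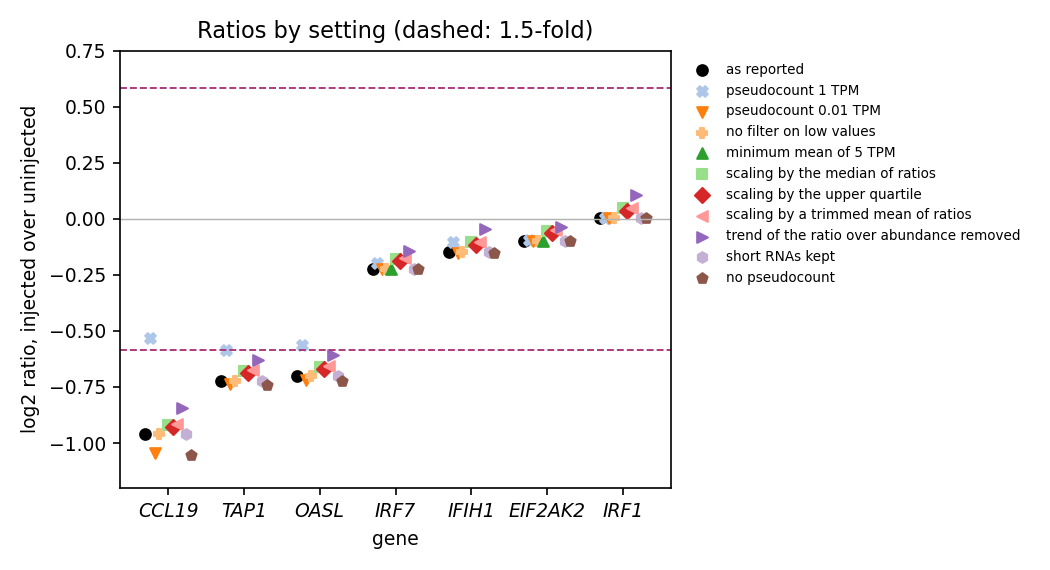
Log2 ratio of injected over uninjected for the 7 compared interferon response genes under each setting, with 1 symbol per setting and dashed lines at 1.5-fold. The ratios of CCL19, TAP1 and OASL are below 0 in each setting shown, and cross to the inner side of the dashed line with a pseudocount of 1 TPM, at −0.53, −0.58 and −0.56.

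Upstream of these genes, the interferons found by symbol were close to or at 0. No row was matched to IFNB, IFNB1, IFNK or IFNKL1. Rows already in the list under another symbol were not matched again. Whether interferon beta or kappa stands among the rows below under another symbol was therefore not settled. The type I interferon genes found had 9 rows, all with IFNA-type or IFNW1 symbols. Their copies are nearly alike in sequence, so that reads cannot be assigned with certainty. All 9 were listed at 0 in the injected wing and between 0.0123 and 0.0888 TPM in the uninjected wing, a sum of 0.356 TPM. Of 1012 rows whose higher value was above 0 and under 0.1 TPM, 33.2% were listed at 0 in the injected and 42.3% in the uninjected wing. IFNG, the type II interferon gene, and the 3 rows of IFNL3, a type III interferon gene, were listed at 0 in both wings.

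The receptors and signal carriers were far more abundant. Of 10 measured, 0 passed 1.5-fold, against 4.79% lower and 2.23% higher over all compared genes. Their log2 ratios ran from −0.51 to 0.14, with a median of −0.09. The lowest ratio, picked with its value known, was that of STAT2, a transcription factor of type I interferon signalling, at 11.2 TPM uninjected and 7.78 TPM injected. The receptor subunit IFNAR2 was at 67.3 TPM uninjected and 68.6 TPM injected, and IFNGR2 at 61.2 and 67.6 TPM. The kinase JAK1 was at 162 and 157 TPM.

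Sensors and their adaptors likewise held 0 calls among 17 compared, where 4.79% of all compared genes were lower and 2.23% higher. Their log2 ratios ran from −0.50 to 0.12, with a median of −0.11. The lowest, picked with its value known, was that of the sensor gene DHX58. Of the 17 ratios 16 were below 0, beside 59.7% of all compared genes. Once the abundance trend was removed, 12 were below 0, beside 7051 of all 13946 compared genes. Among the most abundant, the adaptor genes AZI2 and TANK were at 43.3 and 31.3 TPM uninjected and at 40.7 and 29.0 TPM injected. TICAM1, the adaptor of TLR3, was at 24.3 and 23.7 TPM and MYD88, the adaptor of most other Toll-like receptors, at 22.6 and 21.5 TPM.

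All 8 regulatory factors were compared and 0 passed 1.5-fold, against 4.79% lower and 2.23% higher over all compared genes. Their median was −0.19. IRF8, a factor of the macrophage lineage, was at 36.1 and 28.5 TPM, and IRF2 at 28.6 and 29.9 TPM.

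The wider list of antiviral effectors had 22 compared genes, of which 2 were lower and 0 higher, against 4.79% and 2.23% of all compared genes. The lower genes were OASL and IFI27L1, a small interferon-inducible membrane protein gene, at 15.2 TPM uninjected and 8.25 TPM injected (−0.87). IFI27L1 averaged 11.7 TPM, in the band of 5 to 20 TPM. There 5.09% of genes were lower and the 5th percentile was −0.59. With a pseudocount of 1 TPM, IFI27L1 was at −0.81. LY6E, the most abundant, was at 304 and 373 TPM. The median of the list was −0.10.

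Antigen presentation genes had 1 lower gene, TAP1, among 14 compared, with 10 ratios below 0 and a median of −0.20. Over all compared genes, 4.79% were lower and 59.7% had ratios below 0. The most abundant was the chaperone gene CALR, at 1503 and 1550 TPM. The genes around TAP1 were examined after the data had been seen. In the RefSeq annotation of assembly GRCg7b, used here for gene order alone, TAP1 stands in the MHC between the class I genes BF1 and BF2. Up to 8 protein-coding genes on each side were taken, and 12 of these 16 could be compared. Of the 12, 8 had ratios below 0, as had 59.7% of all compared genes. The median was −0.31, beside −0.04 over all compared genes. BLB1, BLB2, TAPBP, DMA, DMB2, BF1 and BF2 also belong to the antigen presentation list, so these are partly the same values.

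In this neighbourhood only the complement gene C4 was lower by more than 1.5-fold, at 4.78 TPM uninjected and 2.99 TPM injected (−0.66). The class II genes BLB1 and BLB2 had ratios of −0.52 and −0.48, and BF1 and BF2 had ratios of −0.35 and −0.19. TAPBP, which holds class I molecules near the transporter, was at 21.7 and 16.6 TPM (−0.38). BF and BLB genes have near-identical copies, and the split of reads between them is uncertain. B2M, the invariant partner of class I molecules, was at 58.7 and 58.1 TPM, and it does not belong to these neighbours. These genes outside TAP1 and CALR were chosen after their values were seen.

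**Figure D4:**
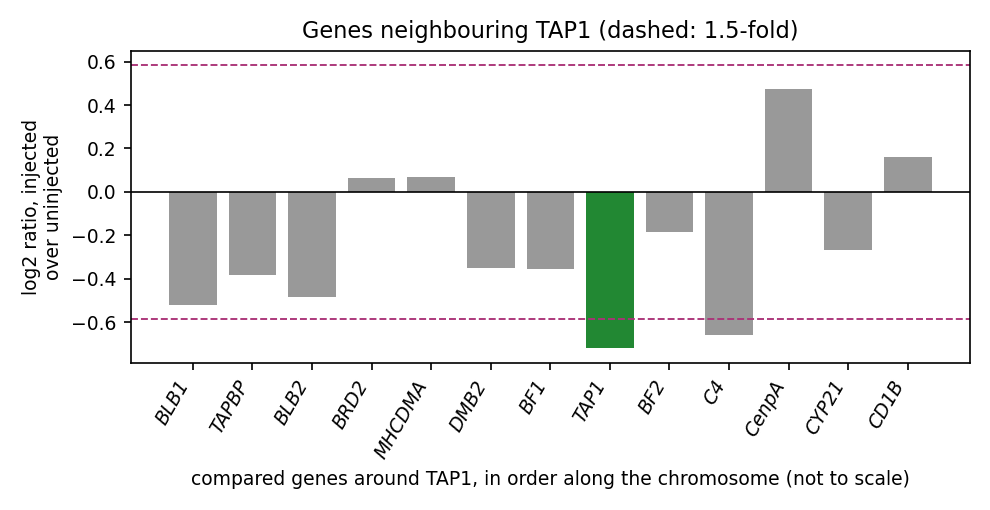
Log2 ratio of injected over uninjected for TAP1 (green) and the 12 compared genes among its neighbours (grey), as bars in the order of the RefSeq annotation, with dashed lines at 1.5-fold. TAP1 at −0.72 and C4 at −0.66 pass the lower line, and BRD2, MHCDMA (the listed name for DMA), CenpA and CD1B have ratios above 0.

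For the other 9 genes, 2 neighbours on each side were taken, and 25 of these 36 could be compared. Of the 25, 3 were lower and 2 higher, against 4.79% and 2.23% of all compared genes, and the median was −0.00. These shares were larger among genes of 1 to 5 TPM on average, as given above, where the called neighbours HYAL3 and GCG lie. GCG reached that band only through the injected wing. CMPK2, which stands beside RSAD2 and like it is known as interferon-inducible, was at 1.45 TPM uninjected and 1.47 TPM injected. HYAL3, close to OASL, was at 5.61 and 3.36 TPM (−0.72), RIPK4, close to MX1, was at 6.53 and 4.19 TPM (−0.63), and SLC22A4, close to IRF1, was at 6.58 and 3.44 TPM (−0.92). The 2 higher neighbours were GCG, close to IFIH1, at 0.861 and 1.66 TPM (0.87), and CNTFR, close to CCL19, at 49.7 and 85.0 TPM (0.77). RIPK4 and SLC22A4 averaged between 5 and 20 TPM, where 5.09% of genes were lower. CNTFR lies between 20 and 100 TPM, where the 95th percentile of the log2 ratio was 0.24.

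Chemokines and inflammatory cytokines had CCL19 as the 1 lower gene among 10 compared, against 4.79% of all compared genes. Of the 10, 7 had ratios above 0, with a median of 0.16, where 59.7% of all compared genes were below 0. CXCL14 was the most abundant, at 490 TPM uninjected and 563 TPM injected. IL1B and IL6 were listed at 0 in both wings. The NF-kappaB arm had 11 compared genes, all with ratios below 0 and none beyond 1.5-fold, between −0.25 and −0.01, where 59.7% of all compared genes were below 0 and their median was −0.04. Under the other scalings 9 or 10 of the 11 were below 0. Over all genes, the counts below 0 were 6980 of 13967 (median of ratios), 7320 of 13961 (upper quartile) and 6891 of 13967 (trimmed mean). CHUK, the gene of an IkappaB kinase, was its most abundant at 93.6 and 87.9 TPM.

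Among 10 feedback inhibitors of cytokine signalling, SOCS3 was lower, at 6.06 and 3.86 TPM, and 0 were higher. Over all compared genes, 4.79% were lower and 2.23% higher. SOCS3 averaged 4.96 TPM, in the band of 1 to 5 TPM, where 15.5% of genes were lower. SOCS1, an inhibitor of Janus kinases picked with its value known, was at 3.88 TPM uninjected and 5.79 TPM injected, a log2 ratio of 0.57 just within the rule. It passed 1.5-fold under 3 other scalings, at 0.60 to 0.61, and with the abundance trend removed, at 0.65. For SOCS3, the log2 ratio of −0.64 became −0.54 with a pseudocount of 1 TPM and −0.55 with the abundance trend removed, within 1.5-fold in each case. PTPN11, a phosphatase gene, was the most abundant at 82.7 and 86.5 TPM. Taking the pathway lists together without the 10 genes, 2 of 95 compared genes were lower, IFI27L1 and SOCS3, and 0 were higher, against 4.79% and 2.23% of all compared genes. The count of 0 higher holds for the values as deposited, since SOCS1 passed under the settings just given.

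**Figure D5:**
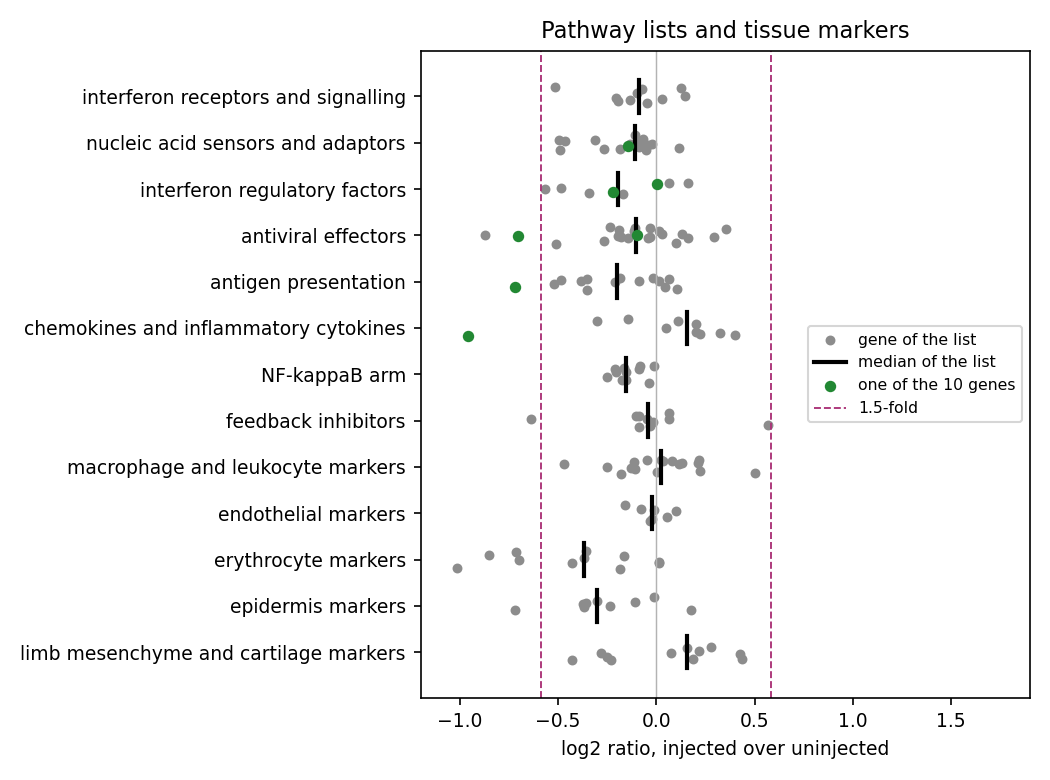
Log2 ratio of injected over uninjected for the compared genes of each list, with 1 point per gene and the 7 compared interferon response genes in green. A black bar marks the list's median, and dashed lines are at 1.5-fold. Most points of the signalling lists lie between the dashed lines, and the erythrocyte and epidermis markers have the lowest medians, −0.37 and −0.30.

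Markers of other cell types were read beside these values, since in whole wings fewer cells of a type and less RNA per cell cannot be told apart. Of 17 compared macrophage and leukocyte markers 0 passed 1.5-fold, with a median of 0.02. Over all compared genes, 4.79% were lower and 2.23% higher. All 21 rows of the macrophage and leukocyte list summed to 310 TPM uninjected and 315 TPM injected. Of these rows 3, all of CD8A, were listed at 0 in the injected wing, 1 of them in both wings. LAPTM5, the most abundant, was at 48.8 and 56.9 TPM. Of 7 endothelial markers 0 passed, against the same shares of all compared genes. They summed to 399 and 389 TPM, and CDH5 was at 144 and 141 TPM. Of 11 limb mesenchyme and cartilage markers 0 passed, against the same shares. Of their ratios 7 were above 0 and 4 below, with a median of 0.16, where 59.7% of all compared genes were below 0. These markers summed to 2548 TPM uninjected and 2881 TPM injected.

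Some erythrocyte markers and 1 epidermis marker were lower beyond 1.5-fold. Of 11 erythrocyte markers 4 were lower, against 4.79% of all compared genes and 15.5% of those at 1 to 5 TPM, where RHAG lies. The lower genes were 1 row of HBBR, HBZ, SLC4A1 and RHAG, and the other 7 rows lay within 1.5-fold. HBBR, HBZ and SLC4A1 were more abundant than RHAG, with log2 ratios of −0.71, −0.70 and −0.85. The 5th percentiles of their abundance bands were −0.29, −0.35 and −0.59, so each lay below its own. The list summed to 4007 TPM uninjected and 3491 TPM injected, with HBA1 at 1301 and 1145 TPM and HBBA, picked with its value known, at 1174 and 1183 TPM. Of 9 epidermis markers ESRP1 was lower, at 7.22 and 4.34 TPM, and 8 lay within 1.5-fold. Of the 9 ratios 8 were below 0, with a median of −0.30. Over all compared genes, 4.79% were lower and 59.7% had ratios below 0. The epidermis list summed to 660 and 542 TPM, with KRT19 at 251 and 203 TPM. No matched marker of these 2 lists was listed at 0 in either wing. The part of these cells in the values of OASL, TAP1, CCL19 and IFI27L1 was not tested.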

How the data were processed

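The authors deposited TPM values per gene for both libraries, each column summing to 1000000. Per the labels' protocols, DNase-treated total RNA (1 µg) went into NEBNext Ultra libraries read as paired ends. HISAT2 2.2.1, StringTie 2.1.7 and build GRCg6a are named in the submitters' processing notes, with annotation release and strand setting not given in the sources used here. Reads of overlapping genes may therefore not be separated. Because TPM has a fixed total, more RNA from abundant genes reduces the values of the rest. The 2 columns of a count table match neither sample's title and were not used.

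Log2 ratios were computed as log2(TPM + 0.1), injected minus uninjected, which understates the change of low genes. Genes above 0 in both libraries and averaging 1 TPM or more were compared, after 1309 short RNA rows were left out. Of 230 entries in 15 lists, 195 matched a symbol, 9 of them an older one in RefSeq (GRCg7b). Genes named are the 10, each list's called genes and its most abundant (up to 4 for receptors, sensors and regulatory factors); others are comparisons chosen after values were seen. A few named by this rule are not reported here. The 10 genes and the lists were chosen with earlier results of these data known. Alternatives were other pseudocounts, filters, scalings, a 2-fold rule and trend removal. Promoter motifs were planned and not analysed here. Python 3.11.15, pandas 2.3.3, NumPy 2.4.6, statsmodels 0.14.6 and matplotlib 3.10.9 were used.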

Additional observations from a re-analysis of the deposited data

How the results depend on the processing

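No paired analysis was possible because each group held 1 library. Of the 7 interferon response genes compared, 3 were lower and 0 higher by more than 1.5-fold. The count of lower genes became 0 with a pseudocount of 1 TPM, 0 with a minimum mean of 5 TPM, which leaves EIF2AK2 and IRF7 alone, and 0 with a 2-fold rule. Without a filter, 2 were higher, IFIT5 and MX1, of which MX1, listed at 0 uninjected, counts through the pseudocount alone. The median log2 ratio of the compared genes, −0.22, became −0.14 with the abundance trend removed. In the other settings, including the scalings, a pseudocount of 0.01 TPM and, added after the data were examined, keeping short RNAs or using no pseudocount, 3 were lower and 0 higher. Over all genes, 311 were higher and 668 lower; the counts were 186 and 432 with a pseudocount of 1 TPM, 122 and 292 at a minimum of 5 TPM, 70 and 207 beyond 2-fold, and 1540 and 1885 without a filter. Depth is unknown, so counting error at these low levels has no estimate.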

Other observations

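Rows of chemokine and interferon-inducible genes outside the lists, picked by the start of their symbols after the data were examined, gave values in both directions. The chemokine gene CCL17 had 1.51 TPM uninjected and was listed at 0 injected, and was not compared. CCLI5, a chemokine row, was at 1.31 TPM uninjected and 2.31 TPM injected, a log2 ratio of 0.77, opposite to CCL19 at a like level. It was thus higher beyond 1.5-fold, as were 7.77% of genes of 1 to 5 TPM on average. The 95th percentile of that band was 0.73. IFI30, a lysosomal thiol reductase gene induced by interferon, was at 22.3 and 20.2 TPM, and IFITM10 at 2.51 and 2.93 TPM.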
